A study of Mus musculus with 6 samples.

Results

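Splicing factors and RNA helicases were followed in C2AS12 cells, a mouse myoblast line derived from C2 cells, as the cells went from growth into low-serum differentiation medium. The members were the genes whose symbol in the probe annotation of the array begins as a heterogeneous nuclear ribonucleoprotein (Hnrnp), an SR protein (Srsf), an Sm or snRNP protein (Snrp), SF3A or SF3B, Prpf, a numbered Lsm, a numbered Ddx or Dhx, or Rbfox. There were 88 of them among 8251 genes with a probe set of a single symbol. They had 123 probe sets, and where a gene had several, the brightest on average over the 6 arrays was used. Of the 88 genes, 81 were bright enough to test and 7 lay under the filter, a mean signal of 75.2 over the 6 arrays. The tested members comprised 54 splicing factors, 25 RNA helicases, Rbfox2 and Snrp1c-ps2, whose symbol marks a pseudogene.

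Total RNA had been hybridised to 6 oligonucleotide arrays, 1 for each of 3 treatments at each of 2 times. All cells were infected with recombinant adenovirus, for wild-type p300, for wild-type p300 with doxycycline added, or for mutant p300. p300 is a histone acetyltransferase and transcriptional coactivator. Arrays were taken at 0 h, before differentiation medium was added, and after 24 h in it. By the submitters' account cells with wild-type p300 survived, while those with doxycycline or mutant p300 died by apoptosis. The labels state neither the mutation, nor the promoter of the viruses, nor what doxycycline does in these cells, and they name no uninfected cells. The design text calls the 6 arrays biological replicates, but no treatment had a second array at the same time and no label tells separate cultures apart, so the p-values rest on the spread among these arrays alone, which may be technical.

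Splicing removes introns in the spliceosome, which is built from small nuclear ribonucleoproteins (snRNPs). Each is an RNA held in a ring of Sm or LSm proteins with particle-specific proteins added. SR proteins and hnRNPs bind pre-mRNA and direct which exons are joined. DEAD-box (Ddx) and DEAH-box (Dhx) helicases use ATP to remodel RNA and its proteins in splicing, export, ribosome assembly, translation and decay. In muscle, alternative splicing changes widely as myoblasts leave the cell cycle and differentiate.

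The deposited values are MAS5 signals in linear intensity. Trimmed means were 199.3 to 200 on the 6 arrays, and median signals lay between 68.7 and 78.0. Signals of 9 spike-in controls stood 0.18 below their mean (log2) on the 24 h array of wild-type p300, and 0.13 and 0.23 above it on the 24 h arrays of doxycycline and mutant p300. Of 9 myoblast markers on the array, all were tested, among them Myod1 at 419.1 to 813.0 and desmin (Des) at 264.6 to 496.3. Of 7 leukocyte markers on the array 4 (Ptprc, Adgre1, Itgam and Cd3e) stayed on all 6 arrays under 16.4, the floor to which lower signals were set. Cd14 read 322.4 to 416.6 and Cd68 103.9 to 173.0, and the list summed to 508.7 to 696.5. Summed signals were 68.7 to 249.7 for 5 endothelial markers and 194.7 to 286.7 for 5 epithelial markers. Among the endothelial markers Cdh5 stayed under the floor on all arrays, while Pecam1 read 36.9 to 70.8, Kdr 14.8 to 53.6 and Vwf 6.1 to 22.1. Tek read 116.3 on the 24 h array of wild-type p300 and 2.8 to 19.5 on the others. Among the epithelial markers Epcam stayed under the floor and Cdh1 read 142.7 to 230.8. Of 4 adipocyte markers (sum 200.6 to 324.3) Cidec stayed under the floor and Lep read 161.0 to 274.1. Of 5 neuron markers (sum 642.7 to 1440.9) Snap25 and Elavl4 stayed under it, and Tubb3, at 1176.2 to 1410.6 at 0 h and 613.7 to 756.3 at 24 h, fell over time (adjusted p = 0.00128). The part of other cells in the results was not tested. The myoblast list summed to 2853.3 to 3227.0 at 0 h and 3782.7 to 4727.2 at 24 h. By limma 4 of its 9 genes rose over time (44.4%, against 7.24% of all probe sets), Myog the most (2.2 ± 0.04). The other 5 were not called, among them Myod1 (0.06), Myf5 (-0.13) and Cdh2 (-0.12).

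The comparison of 24 h with 0 h asked how these genes changed over 24 h in differentiation medium in the 3 treatments. Of 54 splicing factors tested, 17 fell, 1 rose (Hnrnph3) and 36 were not called by limma. Those that fell were the SR protein genes Srsf1, Srsf2 and Srsf3, the Sm and snRNP genes Snrpa1, Snrpg, Snrpe and Snrpc, the LSm genes Lsm2, Lsm4 and Lsm7, 5 hnRNP genes, Prpf31 and Prpf38a. Of 25 tested helicases 0 fell and 1 rose (Dhx40). Over all 81 members 17 fell (21.0%) and 2 rose (2.47%), against 9.00% and 7.24% of the 6212 probe sets tested. At an unadjusted p under 0.05 there were 27 members lower and 7 higher, against 16.4% and 15.1% of all probe sets (31.5% in either direction). The median change of the members was -0.16 on the log2 scale, against 0.00 for all probe sets tested. The difference in counts between splicing factors and helicases was not tested.

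The largest falls were at least 2-fold on average. They were found in Lsm2, Lsm4, Srsf3 and Snrpa1, 4 of 81 members, where 2.46% of all probe sets tested fell by as much. All 3 arrays at 24 h lay below all 3 arrays at 0 h in 26 members (32.1%, against 15.5% of all probe sets tested). All 3 lay above in 5 members (6.17%, against 12.7%). Of the 19 called members, Srsf2, Srsf3, Lsm4, Snrpg, Hnrnpd and Hnrnpll were called in each of 6 fits that left out 1 array, Snrpa1 in 5, and Srsf1, Lsm2 and Hnrnpa2b1 in 4. Snrpe, Lsm7, Hnrnph1 and Hnrnpk were called in 2, Prpf31 in 1, and Snrpc, Prpf38a, Hnrnph3 and Dhx40 in 0. Leaving out either array of a treatment drops that treatment's pair from the time effect, so the 6 fits hold 3 distinct estimates of each change. The 2 fits of a treatment are therefore not separate evidence. Without the mutant array at 0 h 6 members fell, and without that at 24 h 7 fell. Without the doxycycline array of either time 11 fell, and with the wild-type array at 0 h or at 24 h left out 18 or 19. The counts over all 6212 probe sets moved as well. Without the array at 0 h or at 24 h, 293 or 305 fell for mutant p300, 308 or 304 for doxycycline and 666 or 662 for wild-type p300. When arrays were scaled to the spike-in controls, 13 members fell and 0 rose, and among all probe sets 141 rose and 479 fell in place of 450 and 559. That scaling moved the median of all probe sets to -0.12 and that of the members to -0.26.

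Genes of the cell cycle moved with these falls. All 23 tested genes of a proliferation list fell, with a median change of -2.68, and the summed signal of the list was 11711.9 to 14091.5 at 0 h and 2283.0 to 2912.5 at 24 h. The 3' to 5' signal ratio of the actin control, which tracks how intact the RNA is, was 1.33, 1.30 and 1.34 at 0 h and 1.33, 1.45 and 1.49 at 24 h in wild-type, doxycycline and mutant order. The part of either in the changes of splicing genes was not tested. In these bulk samples fewer cells of a type and less RNA per cell cannot be told apart.

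**Figure D1:**
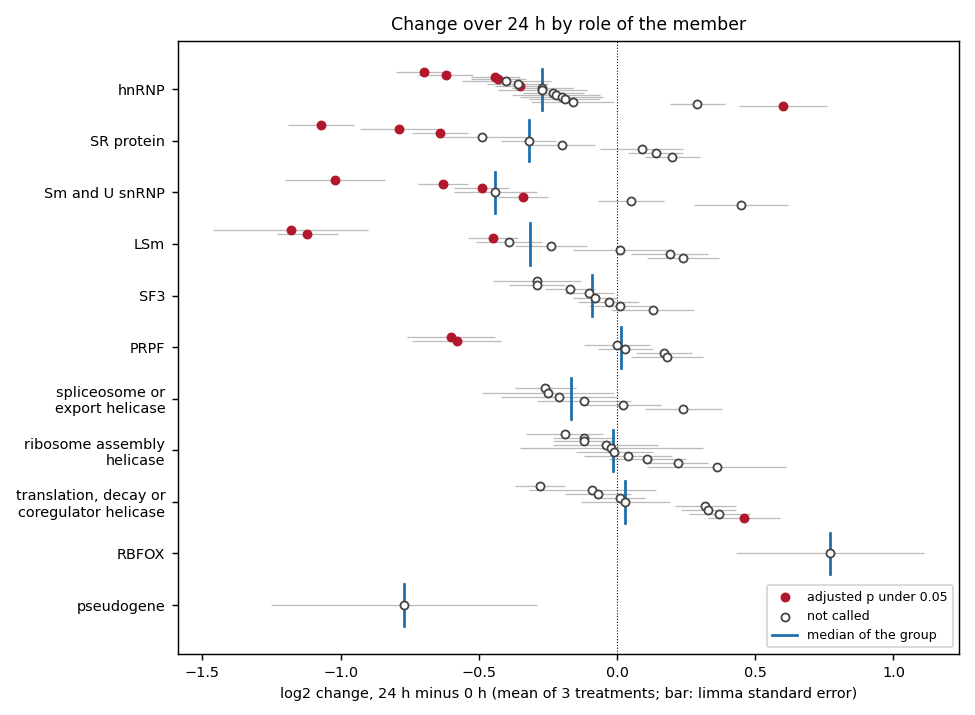
Each point is 1 of the 81 tested members, placed by its log2 change from 0 h to 24 h (mean of 3 treatments, with the limma standard error) in its role group; filled points passed an adjusted p of 0.05 and the vertical bars are group medians. Called falls sit in the hnRNP, SR, Sm, LSm and PRPF groups, and the single call among 25 helicases is a rise.

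SR proteins bind exonic enhancers through RNA recognition motifs and carry a tail rich in arginine and serine. Of 9 measured, 3 fell, 0 rose and 6 were not called, where 9.00% of all probe sets fell and 7.24% rose. The group median was -0.32. Srsf3, which also links splicing to export and polyadenylation, read 361.7 (wild-type p300), 361.0 (doxycycline) and 366.8 (mutant p300) at 0 h, and 153.7, 187.9 and 180.3 at 24 h. The arrays at 24 h read about alike and none reached those at 0 h. Srsf3 fell by 1.07 ± 0.15 on the log2 scale (SD of the change over treatments, n = 3; limma adjusted p = 0.000697).

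Srsf1, a splicing activator and the founding member of the family, read 201.9, 191.1 and 218.5 at 0 h and 126.6, 113.4 and 112.8 at 24 h in the same order of treatments. It fell by 0.79 ± 0.14 (adjusted p = 0.00662), but with its tested probe sets averaged the change was -0.41 and not called (adjusted p = 0.0956). Srsf2, the serine-rich factor known as SC35, read 2151.2, 2398.2 and 2441.8 at 0 h and 1284.4, 1467.0 and 1754.9 at 24 h. The groups did not overlap, and the mutant array was highest at both times. Srsf2 fell by 0.64 ± 0.15 (adjusted p = 0.00303). Srsf9 at -0.32 ± 0.13 (adjusted p = 0.0528) and Srsf10, a splicing repressor when dephosphorylated, at -0.49 ± 0.14 (adjusted p = 0.0681) missed the threshold. Srsf9 was called without the wild-type array at 0 h (-0.39, adjusted p = 0.0168) or at 24 h (adjusted p = 0.0189). Srsf4, Srsf5, Srsf6 and Srsf11 had changes between -0.20 and 0.20 and were not called.

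The genes that fell together were read for shared letters in their promoters, taken from RefSeq on the mouse build GRCm38.p6. The table used covers 79 of the 88 members and 15 of the 17 that fell. Letters of 10 motifs were searched on both strands in 300 bases, 250 before to 50 after each annotated start. The letters searched for E2F factors were TTTCCCGC or, as a second form, TTTGGCGC. Those taken for ETS factors were CCGGAAG, while the SP1 box was read as GGGCGG and the NF-Y core as CCAAT. The MYC E-box was read as CACGTG, a myogenic E-box was read as CAGCTG, and a TATA box was read as TATAAA. The cAMP response element (CRE) was read as TGACGTCA and the site of YY1 was read as AAGATGGC, and the palindromic site of NRF1 was searched as well. CCAAT was chosen for display after the counts were seen. It was found in 10 of 15 genes that fell (66.7%), in 0 of 2 that rose and in 26 of 55 tested members not called (47.3%), against 41.1% of all genes in the table. The ETS letters were in 4 of 15 that fell (26.7%) and 24 of 55 not called (43.6%), against 9.93% of all genes, and those of SP1 in 8 of 15 (53.3%) and 41 of 55 (74.5%), against 38.2%. The CRE and myogenic E-box letters and TATAAA were each in 2 of the 15 (13.3%), those of E2F, MYC and YY1 each in 1 (6.67%) and that of NRF1 in 0. Among all genes these shares were 2.03%, 18.3%, 15.7%, 1.80%, 8.09%, 3.19% and 1.07%. No share was tested. A match is a description of the letters and not a binding site. The 250 bases before the start are shown for 3 genes that fell and hold the letters, Srsf3 (chr17:29032410-29032659, plus strand), Srsf2 (chr11:116853095-116853344, minus strand) and Snrpg (chr6:86371290-86371539, plus strand). Hnrnph3 (chr10:63023850-63024099, minus strand), which rose and does not hold them, is set beside these. Each is written in the direction of its gene, and capitals mark CCAAT or its reverse complement ATTGG.
Srsf3: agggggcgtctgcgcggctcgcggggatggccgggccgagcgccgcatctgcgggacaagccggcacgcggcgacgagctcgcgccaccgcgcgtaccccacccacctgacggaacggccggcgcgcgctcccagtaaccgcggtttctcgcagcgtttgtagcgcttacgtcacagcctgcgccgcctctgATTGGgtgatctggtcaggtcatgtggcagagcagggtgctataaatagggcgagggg
Srsf2: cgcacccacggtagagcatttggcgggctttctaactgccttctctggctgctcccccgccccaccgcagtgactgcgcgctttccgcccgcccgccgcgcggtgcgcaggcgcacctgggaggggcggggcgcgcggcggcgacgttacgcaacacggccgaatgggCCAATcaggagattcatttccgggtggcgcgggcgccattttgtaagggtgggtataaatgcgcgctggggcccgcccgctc
Snrpg: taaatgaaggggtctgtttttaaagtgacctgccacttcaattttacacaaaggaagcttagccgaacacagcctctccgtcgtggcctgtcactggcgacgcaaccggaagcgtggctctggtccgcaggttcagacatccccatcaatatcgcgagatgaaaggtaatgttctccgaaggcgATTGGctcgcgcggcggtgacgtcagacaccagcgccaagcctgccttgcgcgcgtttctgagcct
Hnrnph3: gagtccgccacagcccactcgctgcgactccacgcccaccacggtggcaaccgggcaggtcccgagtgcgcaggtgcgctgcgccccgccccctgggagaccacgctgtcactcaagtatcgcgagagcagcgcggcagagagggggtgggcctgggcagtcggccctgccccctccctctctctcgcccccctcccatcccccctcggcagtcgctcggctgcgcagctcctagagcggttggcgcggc
The motif begins 58 bases before the start in Srsf3, 82 in Srsf2 and 66 in Snrpg.

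Sm proteins form the ring around the RNAs of the U1, U2, U4 and U5 particles. Of 7 Sm and snRNP genes, 4 fell, 0 rose and 3 were not called, against 9.00% and 7.24% of all probe sets. Their median was -0.44. Snrpa1, the U2 protein A', read 124.8, 135.2 and 139.3 at 0 h in wild-type, doxycycline and mutant arrays, and 54.4, 75.1 and 68.9 at 24 h. Every array at 24 h lay below every array at 0 h, and the wild-type array was lowest at both times. Snrpa1 fell by 1.02 ± 0.17 (adjusted p = 0.00762).

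Snrpg, a core Sm protein, read 811.6, 810.3 and 1043.3 at 0 h and 509.2, 505.8 and 720.6 at 24 h, a fall of 0.63 ± 0.08 (adjusted p = 0.00252). The mutant array was highest at both times. Snrpe, another core Sm protein, read 1095.2, 1166.6 and 1275.5 and then 900.6, 733.7 and 890.5, a fall of 0.49 ± 0.19 (adjusted p = 0.0136). Snrpc, the U1 protein C that helps to hold the 5′ splice site, read 471.3, 483.7 and 485.5 and then 356.5, 376.6 and 404.2, a fall of 0.34 ± 0.07 (adjusted p = 0.0434). In all 3 genes the times did not overlap. Snrpb, the core protein B, was not called at 0.05 ± 0.26, with signals of 3811.5, 3642.1 and 2710.6 at 0 h and 3417.7, 3582.9 and 3440.1 at 24 h. Snrpb2, the U2 protein B'', had a change of 0.45 ± 0.24 (adjusted p = 0.119) and Snrpd3 one of -0.44 ± 0.30 (adjusted p = 0.0848). Snrpd3 was called without the wild-type array at 0 h (-0.61, adjusted p = 0.0123) or at 24 h (adjusted p = 0.0145).

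LSm proteins form the ring of the U6 particle and, with Lsm1 in place of Lsm8, a cytoplasmic ring that promotes decapping of mRNA. Of 8 LSm genes, 3 fell, 0 rose and 5 were not called, where 9.00% of all probe sets fell and 7.24% rose. Those that fell, Lsm2, Lsm4 and Lsm7, encode subunits of both rings. Lsm4 read 548.3, 513.9 and 572.9 at 0 h and 285.2, 238.9 and 231.7 at 24 h, and fell by 1.12 ± 0.18 (adjusted p = 0.00035). The times were far apart and the treatments close together at each.

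Lsm2 read 239.5, 205.3 and 287.0 at 0 h and 151.0, 128.6 and 62.6 at 24 h. The fall of 1.18 ± 0.88 (adjusted p = 0.0257) was uneven, since the mutant pair of arrays differed by -2.20 and each other pair by -0.67. Without the mutant array at 0 h or at 24 h the change was -0.67 and no longer called (adjusted p = 0.075 and 0.0506, where the 14 alternatives ranged from 5e-07 to 0.382). Lsm7 read 509.6, 513.0 and 574.3 and then 361.6, 374.8 and 437.2, a fall of 0.45 ± 0.05 (adjusted p = 0.0138) with no overlap. Lsm3, a subunit of both rings, at -0.39 ± 0.22 (adjusted p = 0.0598), Lsm8 of the nuclear ring at -0.24 ± 0.31 and the decapping factor Lsm1 at 0.01 ± 0.28 were not called. Without the wild-type array at 0 h Lsm3 (-0.49, adjusted p = 0.0107) and Lsm8 (-0.39, adjusted p = 0.0321) were called, and without that at 24 h as well (adjusted p = 0.0126 and 0.0374). Lsm14a and Lsm14b, which act in mRNA storage granules, had changes of 0.19 ± 0.38 and 0.24 ± 0.25 and were not called either.

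The hnRNP genes were the largest group. Of 16, 5 fell, 1 rose and 10 were not called, where 9.00% of all probe sets fell and 7.24% rose. The median was -0.27. Hnrnpll, which directs alternative exons in lymphocytes and other cells, read 597.2, 700.4 and 657.3 at 0 h and 420.4, 429.8 and 358.6 at 24 h. It fell by 0.70 ± 0.18 (adjusted p = 0.00311). Hnrnpd, also known as AUF1, which binds AU-rich elements and affects mRNA decay, read 466.4, 442.2 and 461.0 and then 304.9, 276.0 and 313.9. Its fall of 0.62 ± 0.06 (adjusted p = 0.00409) was nearly equal in the 3 treatments. In both genes every array at 24 h lay below every array at 0 h.

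Hnrnpa2b1, an abundant packaging and splicing protein, read 1748.0, 1654.7 and 1601.8 at 0 h and 1157.2, 1345.2 and 1202.3 at 24 h, and fell by 0.44 ± 0.15 (adjusted p = 0.0171). Hnrnpk, which binds runs of C, read 393.4, 402.1 and 424.3 and then 317.1, 282.4 and 305.5, a fall of 0.43 ± 0.11 (adjusted p = 0.0244). Hnrnph1, which binds runs of G, read 1081.6, 1329.1 and 1194.5 and then 858.1, 982.0 and 983.8, a fall of 0.35 ± 0.08 (adjusted p = 0.0297). The times did not overlap in any of these genes. Its relative Hnrnph3 rose by 0.60 ± 0.17 (adjusted p = 0.0392), from 88.7, 93.3 and 104.1 to 153.0, 127.4 and 155.1. That call was lost in each fit that left out 1 array (adjusted p from 0.0827 to 0.153). Among those not called, Hnrnpdl had a change of -0.36 ± 0.23 (adjusted p = 0.0536) and Hnrnpc one of -0.40 ± 0.11 (adjusted p = 0.123).

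SF3A and SF3B proteins hold the U2 particle on the branch point. None of the 8 tested SF3 genes was called by limma, with changes between -0.29 and 0.13. An unadjusted limma p under 0.05 was found in 1, against 31.5% of all probe sets in either direction. All 3 arrays at 24 h lay below all 3 at 0 h in 4 of the 8, Sf3a2 among them, against 15.5% of all probe sets. Sf3a2, the brightest of them, read 1504.5, 1433.0 and 1399.4 at 0 h and 1381.0, 1372.1 and 1338.1 at 24 h, a change of -0.08 ± 0.03. Sf3b1, the subunit nearest to the branch point, had a change of 0.13 ± 0.40. Its pair of arrays differed by -0.26 with wild-type p300 and by 0.53 with doxycycline.

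Of 6 tested PRPF genes, 2 fell, 0 rose and 4 were not called, where 9.00% of all probe sets fell and 7.24% rose. Prpf31, which joins U4/U6 to U5, read 127.5, 136.5 and 167.0 at 0 h and 87.1, 91.6 and 105.5 at 24 h, a fall of 0.60 ± 0.06 (adjusted p = 0.0368). Prpf38a, a factor of spliceosome activation, read 209.3, 192.6 and 237.0 and then 108.5, 154.8 and 170.7, a fall of 0.58 ± 0.33 (adjusted p = 0.0403). Its array pair differed most, by -0.95, with wild-type p300. The times did not overlap in either gene. Prpf8, the scaffold of the catalytic core, was not called, with 867.7, 895.5 and 817.1 at 0 h and 704.1, 1106.0 and 810.8 at 24 h. Prpf6, Prpf19 and Prpf38b had changes of 0.17, 0.03 and 0.18 and were not called.

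**Figure D2:**
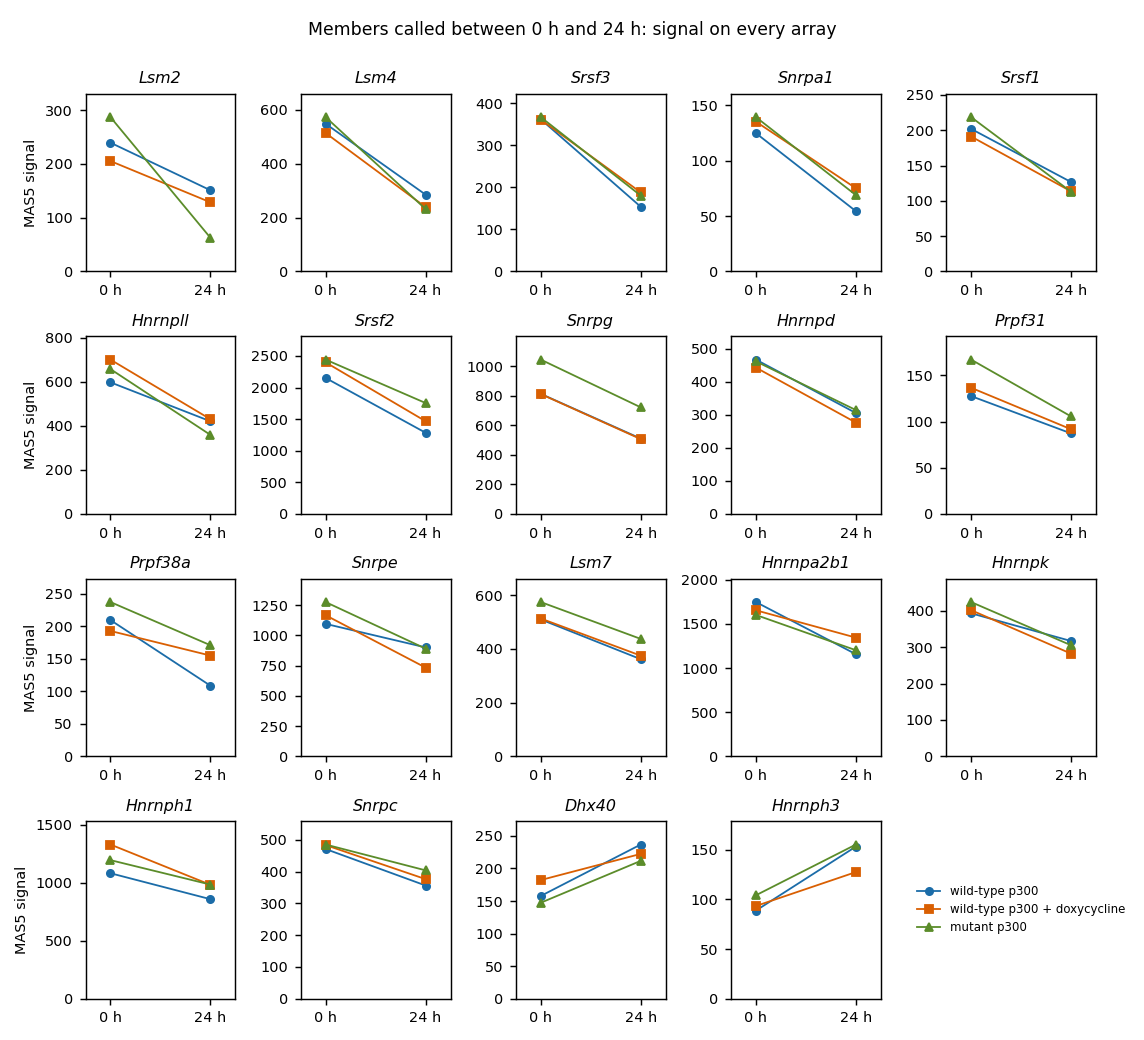
The 19 members called between 0 h and 24 h, each in a panel with its own linear axis from 0; the y axis is the MAS5 signal, and each line joins the 2 arrays of a treatment. The 3 lines run downward in 17 genes and upward in Dhx40 and Hnrnph3, and the mutant line of Lsm2 drops furthest, from 287.0 to 62.6.

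Of 25 tested RNA helicases, limma called 1 over time, a rise, where 9.00% of all probe sets fell and 7.24% rose. With an unadjusted limma p under 0.05, 4 were higher and 2 lower, against 15.1% and 16.4% of all probe sets. Of 10 tested helicases of ribosome assembly none was called, with 0 at an unadjusted p under 0.05 and changes between -0.19 and 0.36. Ddx50, a nucleolar helicase and the brightest of the group, read 382.1, 402.1 and 480.4 at 0 h and 386.0, 477.6 and 637.4 at 24 h, a change of 0.22 ± 0.20. Its paralog Ddx21 had a change of -0.01 ± 0.25. The largest spread was that of Ddx27, whose array pairs differed by -0.68, 0.99 and -0.36 in wild-type, doxycycline and mutant order.

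Of 6 tested helicases of the spliceosome or of mRNA export none was called by limma. An unadjusted limma p under 0.05 was found in 1, against 31.5% of all probe sets in either direction. Ddx39b, which acts in branch point recognition and in export, read 922.2, 1018.9 and 1022.4 at 0 h and 659.0, 989.0 and 857.5 at 24 h, a change of -0.26 ± 0.22 (adjusted p = 0.132). The doxycycline array at 24 h lay above the wild-type array at 0 h, so the times overlapped. Dhx15, which takes spent spliceosomes apart, had a change of -0.12 ± 0.32, and Dhx16, which acts at their activation, one of 0.24 ± 0.15.

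Among 9 tested helicases grouped here under translation, decay or transcription, 1 rose, 0 fell and 8 were not called. Of all probe sets 7.24% rose and 9.00% fell. With an unadjusted limma p under 0.05, 4 of these 9 were higher and 1 lower, against 15.1% and 16.4% of all probe sets. Dhx40, whose cellular role is less well known, read 157.8, 182.2 and 147.4 at 0 h and 236.7, 222.3 and 211.6 at 24 h, with no overlap. It rose by 0.46 ± 0.16 (adjusted p = 0.0438), and each fit that left out 1 array lost the call (adjusted p from 0.0741 to 0.191). Ddx17 and Ddx5 are coregulators of transcription factors, MyoD among them. Ddx17 had a change of 0.33 ± 0.22 (adjusted p = 0.0655) and Ddx5 one of 0.32 ± 0.24 (adjusted p = 0.082). Ddx5 read 844.2, 833.2 and 863.8 at 0 h and 889.4, 1218.0 and 1085.7 at 24 h, so that all arrays at 24 h were higher, that with wild-type p300 the least. Ddx17 and Ddx5 were called without the wild-type array at 0 h (0.45, adjusted p = 0.00784, and 0.44, adjusted p = 0.00699) and without that at 24 h (adjusted p = 0.00893 and 0.00827). Ddx6, a repressor of translation that promotes decapping, had a change of 0.37 ± 0.18 (adjusted p = 0.0595). Ddx3x, a helicase of translation initiation, stayed at 0.01 ± 0.07, and Ddx1 had a change of -0.28 ± 0.04 (adjusted p = 0.0656).

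Rbfox2, a splicing regulator of muscle exons, was low on 1 array. It read 39.1 with wild-type p300 at 0 h, against 176.3 and 151.5 with doxycycline and mutant p300, and 157.2, 199.1 and 166.1 at 24 h. It was the 1 member of 81 (1.23%) whose wild-type array lay at least 2-fold below both others at 0 h, where 0.177% of all probe sets did so. The change over time was 2.01, 0.18 and 0.13 in wild-type, doxycycline and mutant order, and its mean was not called (adjusted p = 0.159). A second tested probe set of Rbfox2 read 135.3, 113.3 and 142.4 at 0 h and 89.2, 131.1 and 70.1 at 24 h, and did not show the low array. Snrp1c-ps2 varied as widely, at 436.1, 89.3 and 238.3 and then 79.2, 152.6 and 155.3, and its probe set name marks possible cross-hybridisation.

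Probe sets of a gene did not always move alike. Several tested probe sets existed for 17 members. In 6 of these the changes over time differed in sign between probe sets, and in 0 were they called both ways. Hnrnpul2 had changes of -0.27 and 0.59, Srsf10 of -0.49 and 0.06, Ddx24 of 0.11 and -0.20, Ddx47 of -0.12 and 0.13, Ddx3x of 0.01 and -0.02, and Rbfox2 of 0.77 and -0.47, the brighter probe set first. None of these was called. The second probe set of Srsf2 fell further, by 1.28 ± 0.23 (adjusted p = 0.000235). The second of Srsf1 read 80.1 to 100.1 on all arrays, with a change of -0.03 ± 0.12, and the second of Srsf3, under the filter, read 41.8 to 52.1. That of Hnrnpa2b1 had a change of -0.28 ± 0.21 (adjusted p = 0.162). The second of Ddx17 rose by 0.42 ± 0.24 (adjusted p = 0.0403), where the first missed the threshold. Among the 19 called members, 4 were read by probe sets whose names mark possible cross-hybridisation or a relaxed design, Srsf2, Srsf3, Snrpe and Lsm2.

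**Figure D3:**
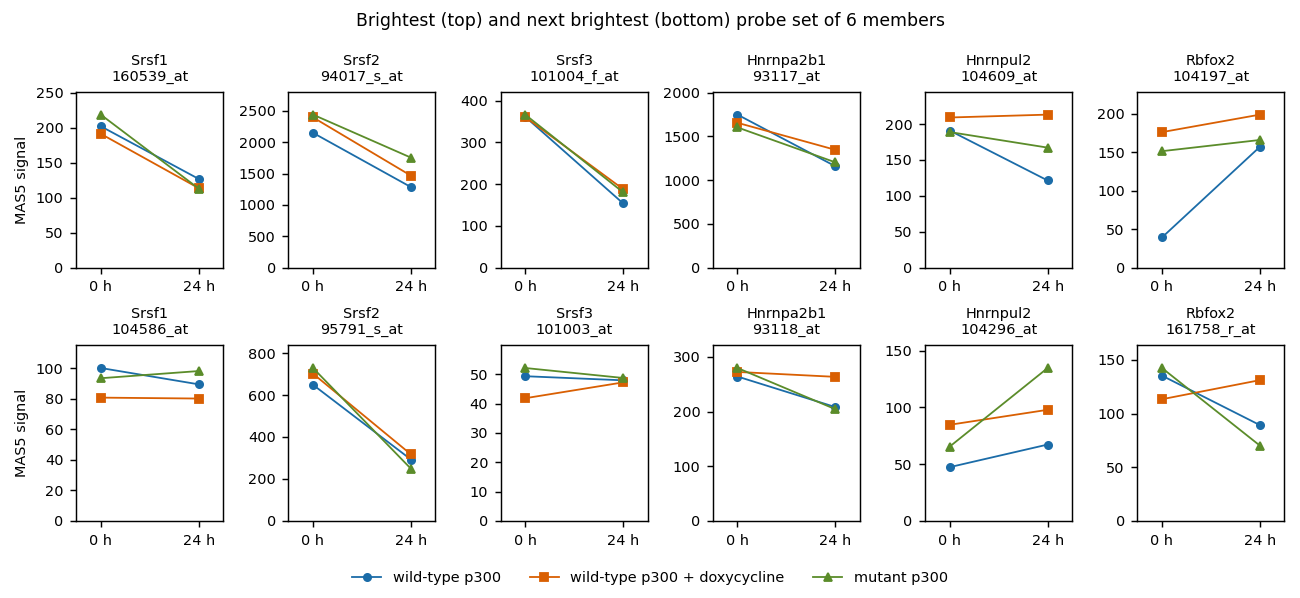
MAS5 signal (linear axis from 0) at 0 h and 24 h on the brightest probe set of 6 members (top) and their next brightest (bottom); each line joins the 2 arrays of a treatment. Both probe sets of Srsf2 run downward in all 3 treatments, while the lower panels of Srsf1 and Srsf3 stay within 80.1 to 100.1 and 41.8 to 52.1.

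Other genes of splicing and mRNA binding were counted from a separate list. Of 95 on the array 78 were tested, of which 12 fell (15.4%, against 9.00% of all probe sets), 3 rose (3.85%, against 7.24%) and 63 were not called. Their median of -0.03 was near the 0.00 of all probe sets. Rbmx, an hnRNP-like protein of the X chromosome, fell by 1.08 ± 0.30, and Alyref, the adaptor of mRNA export, fell by 1.04 ± 0.29. Rbm14 fell by 0.75 ± 0.24, the polyadenylation factor Nudt21 by 0.68 ± 0.14 and the minor spliceosome protein Snrnp25 by 0.60 ± 0.09. Clk1, a kinase that phosphorylates SR proteins, rose by 0.57 ± 0.12, from 456.8, 600.4 and 499.9 at 0 h to 653.3, 844.4 and 815.0 at 24 h. The related kinase Clk2 was also among the 3 that rose, at 0.44 ± 0.22, with Celf2, a regulator of muscle exons, at 0.47 ± 0.10.

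At 24 h, setting wild-type p300 against doxycycline and mutant p300 asked whether these genes go with survival. By limma 0 of 81 members were called in either direction (lowest adjusted p = 0.216), where 0.724% of all probe sets were higher and 0.0483% lower. At an unadjusted p under 0.05, 13 members were lower with wild-type p300 and 1 was higher, against 5.57% and 5.91% of all probe sets. The wild-type array lay below both others in 44 members (54.3%, against 39.6% of all probe sets) and above both in 12 (14.8%, against 28.4%). At 24 h it was at least 2-fold below both in 0 members (0.386% of all probe sets) and 2-fold above both in 0 (1.30%), and at 0 h 2-fold above both in 0 (0.338%). At 0 h it lay below in 34 (42.0%, against 37.0% of all probe sets) and above in 19 (23.5%, against 32.1%).

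That direction depended on the scaling. With arrays scaled to the spike-in controls, the wild-type array at 24 h lay below both others in 10 of 80 members (12.5%, against 7.45% of all probe sets) and above both in 45 (56.2%, against 72.8%). The median difference of the members went from -0.15 to 0.22 and that of all probe sets from -0.04 to 0.32, so the members sat lower than the whole in each case. The actin ratio at 24 h, given above, was lowest with wild-type p300 (1.33), and its part in the result was not tested.

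The members with the lowest p were read in full. Srsf11, an SR-related protein, read 601.7 (wild-type p300), 1016.4 (doxycycline) and 848.2 (mutant p300) at 24 h, and 578.9, 790.7 and 740.3 at 0 h. The wild-type array was lowest at both times, with a difference of -0.63 ± 0.18 at 24 h (limma standard error; adjusted p = 0.216) and of -0.51 ± 0.12 over both times (adjusted p = 0.112). Ddx17 read 1128.8, 1674.7 and 1638.8 at 24 h and 1053.6, 1304.5 and 1130.0 at 0 h, a difference of -0.55 ± 0.17 at 24 h (adjusted p = 0.237). Hnrnpm, which binds GU-rich RNA, read 756.6, 1132.6 and 1042.3 at 24 h, a difference of -0.52 ± 0.16 (adjusted p = 0.258). At 0 h it read 1124.7, 1036.5 and 1129.7, so the wild-type array was low at 24 h and not at 0 h. The values of Ddx39b given above differed by -0.48 ± 0.17 at 24 h (adjusted p = 0.305). With scaling to the spike-in controls these 24 h differences were -0.26 for Srsf11, -0.19 for Ddx17, -0.16 for Hnrnpm and -0.12 for Ddx39b.

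None of the 8 LSm genes was called, and 1 had an unadjusted limma p under 0.05, against 11.5% of all probe sets in either direction. Their median difference at 24 h was 0.22, and the wild-type array lay above both others in 5 of 8, where it did so in 28.4% of all probe sets. With scaling to the spike-in controls the median of all probe sets was itself 0.32, and no difference between role groups was tested. Lsm3 read 338.3, 244.5 and 246.9 at 24 h, a difference of 0.46 ± 0.20 (unadjusted p = 0.0477, adjusted p = 0.424). The group medians were -0.32 for SR proteins, -0.38 for PRPF, -0.14 for hnRNPs and -0.15 for SF3 genes.

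**Figure D4:**
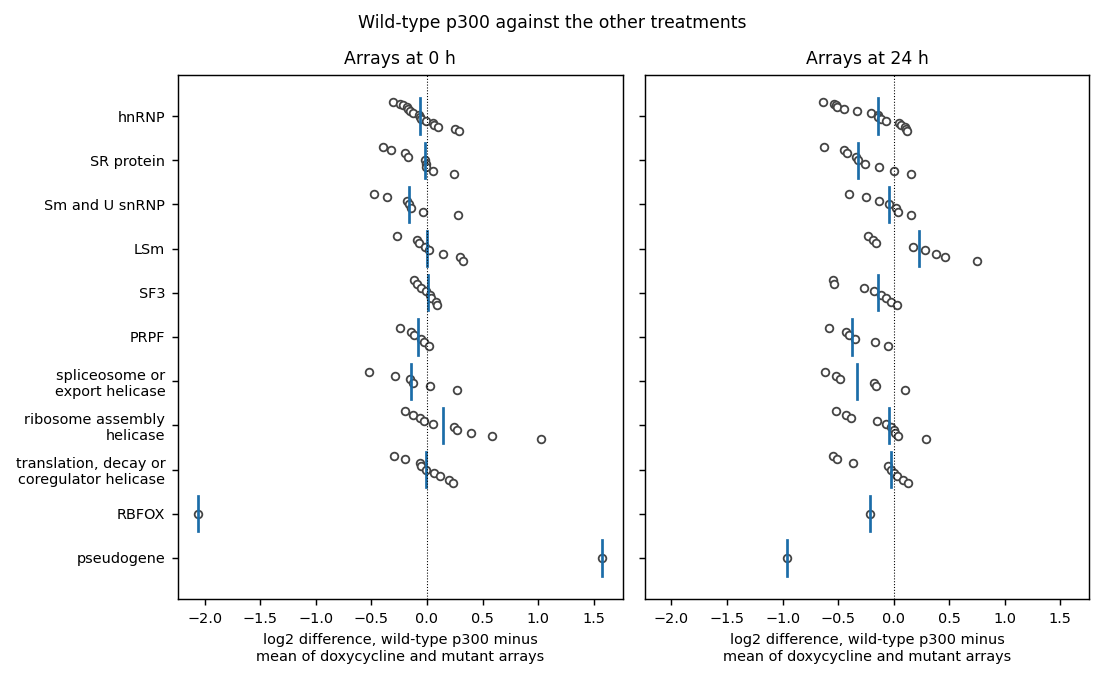
Log2 difference of the wild-type p300 array from the mean of the doxycycline and mutant arrays for the 81 tested members by role, at 0 h (left) and 24 h (right); vertical bars are group medians. At 24 h the medians lie at -0.32 for SR proteins and 0.22 for LSm genes; Rbfox2 stands at -2.06 at 0 h.

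These values rest on single arrays. Without the mutant array at 24 h the differences at that time were -0.76 for Srsf11, -0.83 for Sf3b1 and -0.65 for Prpf8. With all arrays they were -0.63, -0.54 and -0.43. Without the doxycycline array at 24 h that of Lsm2 was 1.27, in place of 0.75. Such a fit sets 1 wild-type array against 1 other, so it holds no spread among arrays at 24 h and its p-values are not given. Over both times 0 of 81 members were called, where 0.499% of all probe sets were called higher and 0.0322% lower. At an unadjusted p under 0.05, 10 members were lower and 0 higher over both times, against 6.75% and 6.97% of all probe sets. With scaling to the spike-in controls Rbfox2 was called (-0.98, adjusted p = 0.00767) over both times. The interaction, which asks whether the change over time differed between wild-type p300 and the other treatments, called 0 members and 0.00% of all probe sets in either direction. At an unadjusted p under 0.05 there were 3.17% of all probe sets (1.69% higher and 1.48% lower) and 3 members, Rbfox2 (1.85 ± 0.39), Snrp1c-ps2 (-2.54 ± 0.68) and Hnrnpm (-0.58 ± 0.23). Without the mutant array at 0 h the interaction of Snrp1c-ps2 was -3.25, and without that at 24 h it was -2.53.

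The doxycycline and mutant arrays, both from cells given as dying, were compared without a test. The ranks below hold for the deposited scaling. With arrays scaled to the spike-in controls, the wild-type array at 24 h was the highest in 45 of 80 members (56.2%, against 72.8% of all probe sets). The ranks of the doxycycline and mutant arrays were not counted under that scaling. At 24 h the doxycycline array was the highest of the 3 in 37 members (45.7%, against 38.1% of all probe sets) and the lowest in 17 (21.0%, against 28.9%), while the mutant array was the highest in 32 (39.5%, against 33.5%) and the lowest in 20 (24.7%, against 31.3%). At 0 h the mutant array was the highest in 38 members (46.9%, against 34.5%) and the lowest in 21 (25.9%, against 33.3%), and the doxycycline array the highest in 24 (29.6%, against 33.2%) and the lowest in 26 (32.1%, against 29.5%). At 24 h Lsm2 was at least 2-fold higher with doxycycline (128.6 against 62.6), 1 of 81 members (1.23%) where 1.34% of all probe sets were. Lsm14b, which read 215.7 against 432.0, was at least 2-fold lower, 1 of 81 where 0.934% of all probe sets were. Its log2 difference of -1.0 lay at that threshold, and the spike-in controls of these arrays stood 0.13 (doxycycline) and 0.23 (mutant) above their mean.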

How the data were processed

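The deposited table holds array signals in linear intensity for 12488 probe sets on 6 arrays, made by the authors with MAS5, per the submitters' processing notes; its version is not given in the sources used here. Left out were the 66 control probe sets. The 6212 of 12422 probe sets with a mean signal at or above the median of 75.2 were tested. Values below the 25th percentile (16.4) were raised to it before log2. The tests were those of limma 3.58.1 under R 4.3.3: lmFit, then eBayes with trend, 2-sided, adjusted by Benjamini-Hochberg over all probe sets tested and called at an adjusted p under 0.05. Their steps were tested on simulated data. All simulated arrays varied alike and independently, so the assumptions on arrays given below were not checked. The time effect had treatment as a block (2 residual degrees of freedom). The outcome effect at 24 h and the interaction had 1 mean for each outcome and time (2 residual degrees of freedom), so the single array of wild-type p300 is taken to vary like the rest. The outcome effect over both times also held a term for time (3 residual degrees of freedom) and takes both arrays of a treatment as independent. The number of arrays limits the precision. Symbols came from the probe annotation of the array, and role groups from a fixed list, with Snrp1c-ps2 added to it later. Members, lists and tests were chosen with earlier results of these data known. Named in full were members called in any effect, the brightest of each role group, members at least 2-fold apart in the wild-type array, genes whose probe sets were called both ways or differed by over 1 (log2), and, chosen after their values were seen, members just past a threshold and those with the lowest p between outcomes. Of the list of other splicing genes, the 6 called with the largest change and Celf2 and Clk2, chosen likewise, were named.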

Additional observations from a re-analysis of the deposited data

How the results depend on the processing

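No called member changed direction under any of the 14 alternatives of the time effect, but most of these could not reverse one. Each called member moved the same way in all 3 treatments, so leaving out 1 array keeps its direction. The fits without the filter, the replicate block or the variance trend leave the size of each change as it was. Of the 19, 5 (Lsm4, Srsf2, Srsf3, Hnrnpd and Hnrnpll) were called in all but the fit without the filter on dim probe sets. These and Snrpg, 6 in all, were called in each fit that left out 1 array; the other 13 were lost in at least 1. For time the probe sets called were 1009 in the fit reported, 0 without the filter, 514 with no replicate block (treatment left out of the model) and 620 with scaling to spike-in controls, and 479 to 1283 with 1 array left out. Members that fell were 17, against 0 without the filter, 10 with no replicate block, 11 without the variance trend and 6 to 19 with 1 array left out. Members that rose were 2, against 0, 0 and 1 in the same order, 0 with scaling to spike-in controls and 0 to 3 with 1 array left out. At 24 h the outcome effect called 48 probe sets, 192 without the filter, 11 without the variance trend, 419 with spike-in scaling and 45 to 351 with 1 array left out; 0 to 3 members were lower and 0 to 1 higher. Over both times it called 33, and 10, 1 and 237 under the same settings, with 1 member lower under spike-in scaling and 0 to 50 probe sets with 1 array left out. The interaction called 0, and 245 without the filter, 1 with spike-in scaling and 6 to 43 with 1 array left out, with 0 to 1 members lower. The cause of these shifts was not tested. Fits with 1 array left out use fewer samples, and for time the 2 fits of a treatment give the same change. Without the wild-type array at 24 h the outcome effect at that time and the interaction cannot be had, and without that at 0 h the interaction cannot. The floor at the 10th percentile, a pseudocount of 16, quantile normalization and means over probe sets kept all these counts within 1.5 times; with means over probe sets Srsf1 lost its call (-0.41, adjusted p = 0.0956).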

Other observations

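Probe sets with several symbols were kept out of the members. There were 8 of them with a symbol that matches the rule, all in the hnRNP, Sm or LSm families beside pseudogene or predicted symbols. Of 6 tested, 4 fell over 24 h by limma, by 0.41 to 0.51 on the log2 scale, and 0 rose. Among all probe sets tested 9.00% fell and 7.24% rose. The 6 are not separate genes, since Hnrnpa3 and Hnrnpa1 each had another that was not called. Those changed by -0.17 ± 0.42 (limma adjusted p = 0.673) and -0.41 ± 0.16 (adjusted p = 0.203). The 7 members under the filter, Prpf39, Prpf4b, Ddx4, Ddx10, Ddx25, Ddx49 and Dhx32, had mean signals between 9.5 and 68.2, and Dhx32 lay under the floor on all 6 arrays.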
